A study of Mus musculus with 6 samples.

Results

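The 49 genes described here encode the proteins that license origins of DNA replication and build the replication fork. They were listed by name, by their known roles in the machinery, and all 49 have a row among the 13426 genes of the expression table. Their RNA was sequenced in early LPre-B cells (LPre, large pre), the dividing B cell precursors of mouse bone marrow in which V segments of the immunoglobulin heavy chain locus are joined. The 3 Ctrl libraries carry the genotype Upf1 Flox/Flox, Mb1 +/+, and the 3 libraries labelled cKO carry Upf1 Flox/Flox, Mb1 Cre/+, so the floxed *Upf1* alleles are shared by both groups while the Cre is present in cKO alone. Per the study's methods, the mice were adult, age-matched C57BL/6 animals of both sexes, and loxP sites flank internal exons of *Upf1*. From general knowledge of this Cre line, not the study's text, Cre sits in an allele of *Cd79a* (Mb1). That allele drives Cre in B lineage cells. The Mb1 +/+ controls have no Cre and keep both *Cd79a* alleles. UPF1 is the helicase on which nonsense-mediated mRNA decay rests. The comparison shows which transcripts differ between these genotypes in the sorted cells. A difference cannot be assigned to UPF1 alone, since the Cre allele goes with the genotype.

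Replication is prepared in G1 phase, when the origin recognition complex (ORC), CDC6 and CDT1 load the ring-shaped MCM2-7 complex onto DNA. Geminin holds CDT1 back after S phase has begun, so that each origin is licensed a single time per cycle. In S phase CDC45 and GINS turn the loaded ring into an active helicase, polymerase alpha with its primase starts each strand, and polymerases delta and epsilon extend it behind the PCNA clamp. Transcription of many of these genes is driven by E2F factors as cells pass from G1 to S, and large pre-B cells are known as a rapidly dividing stage of B cell development.

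Of the 49 genes, 38 were lower and 2 were higher in cKO than in Ctrl at an adjusted p below 0.05 (limma), and 9 did not pass the test. Over all genes 25.0% were called lower and 27.7% higher. The median log2 fold change (cKO minus Ctrl) of the 49 genes was -0.62, against 0.01 over all genes, and single genes ranged from -1.16 for *Rfc3* to 0.81 for *Tyms*. The genes that rose were *Orc4* and *Tyms*. Summed over the 49 genes, the level was 10518 ± 206 normalised reads (SD, n = 3) in Ctrl and 6890 ± 67.2 (SD, n = 3) in cKO, or 65.5% of Ctrl. A normalised read is a read scaled to an effective library size of 1000000 reads, and fold changes are differences of log2(normalised reads + 1).

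**Figure D1:**
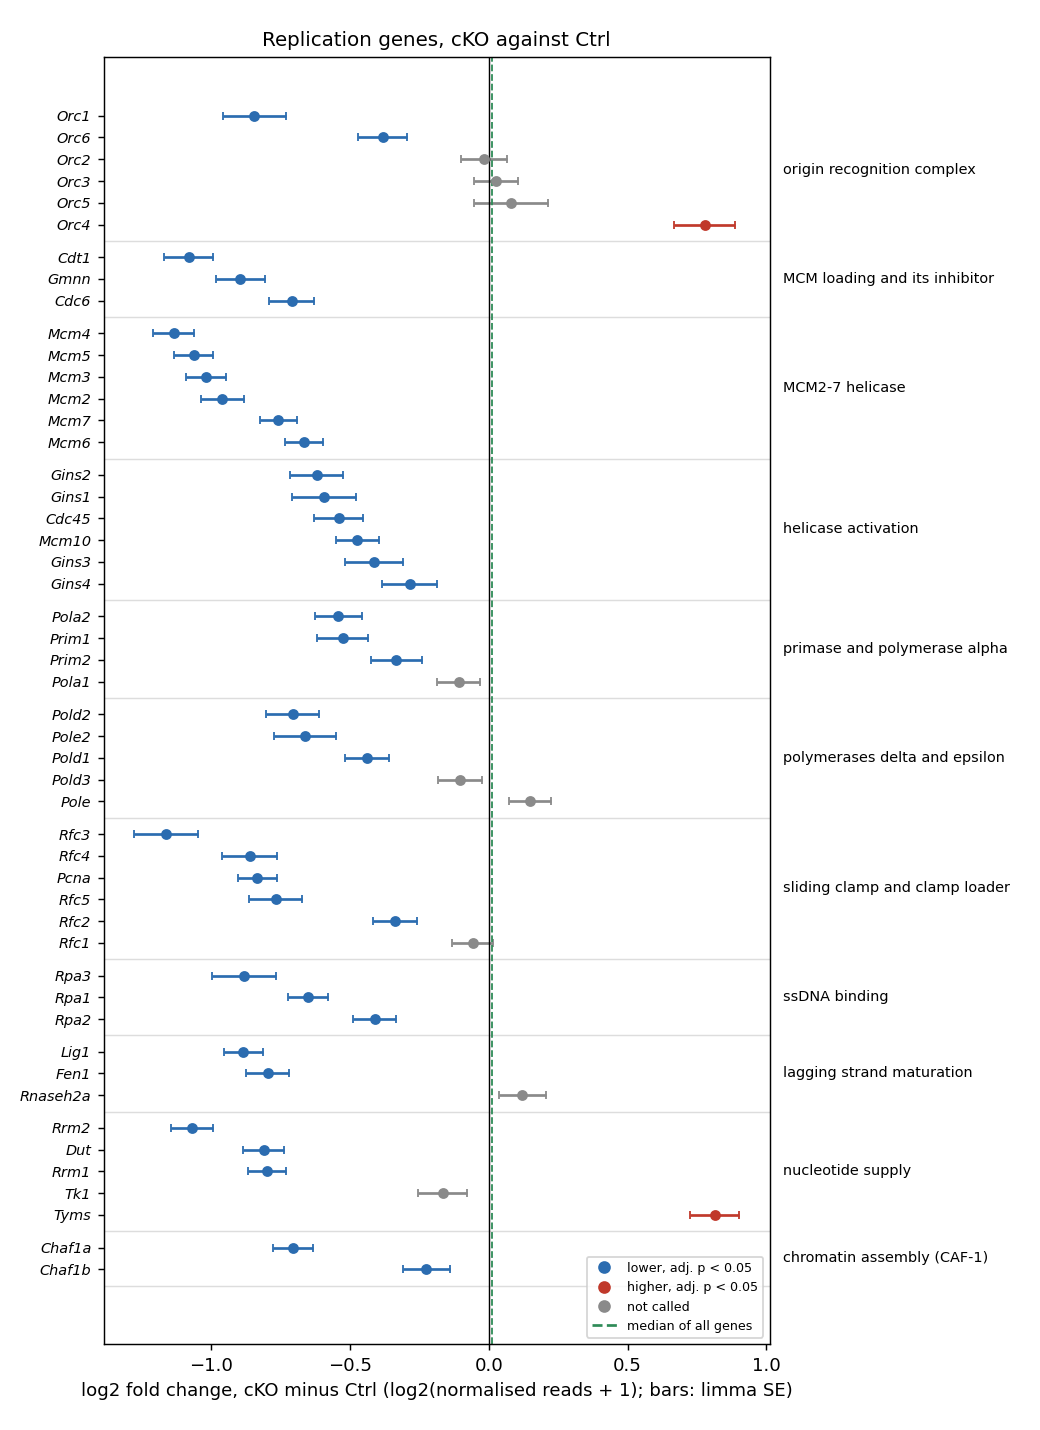
Log2 fold change (cKO minus Ctrl, on log2(normalised reads + 1)) of the 49 replication genes, ordered by role, with bars for the limma standard error from 3 Ctrl and 3 cKO libraries. Blue points are the 38 genes called lower, red points the 2 called higher (*Orc4* and *Tyms*) and grey points the 9 not called; the dashed line is the median of all genes, 0.01, and 6 blue points lie at -1 or below.

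Libraries held 9732498 to 11006834 recovered reads, and the 49 genes took 0.967 to 1.004% of them in Ctrl and 0.717 to 0.753% in cKO. A single member had between 159 and 7198 reads in a library. *Upf1* itself was at 259.998, 203 and 259 normalised reads in Ctrl libraries 1, 2 and 3 and at 308, 283 and 299.7 in cKO libraries 1, 2 and 3 (log2 fold change 0.31, SE 0.0892, adjusted p = 0.007), so its gene-level row was not lower in the libraries labelled cKO. Reads were summed over the gene with no split by exon, so this row does not check the labels. *Cd79a*, whose locus carries the Cre, was at 33.2% of Ctrl in the libraries labelled cKO; cKO means the libraries with that label throughout. The study describes the libraries of a group as biological replicates, while the labels do not tie them to separate mice; p-values measure the spread between these libraries.

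All 12 markers used for early LPre-B cells had a row and summed to between 2633 and 2878 normalised reads in Ctrl and between 2832 and 3008 in cKO. Within that list *Dntt*, which adds bases at V(D)J joints, *Rag1* and *Rag2*, the recombinase genes, and *Vpreb1* were higher in cKO, whereas *Cd79a* (log2 fold change -1.58), *Ptprc* and *Il7r* were lower. The 3 markers of later pre-B stages, *Cd2*, *Il2ra* and *Igkc*, were all lower, at a summed 52.3 to 61.1 in Ctrl and 22.2 to 24.2 in cKO. All 7 neutrophil markers had a row, and 4 of them were higher in cKO; their sum was 113, 16.9 and 13.4 in Ctrl libraries 1, 2 and 3 and ran from 313 to 441 in cKO, at most 0.0465% of a library's summed level. Without Ctrl library 1, the Ctrl library with the most neutrophil signal, 38 of the 49 replication genes were lower and 3 higher, against 25.0% and 27.1% of all genes. Leaving it out widens the difference in neutrophil signal between the groups, so this count does not test the part of neutrophil RNA. Of the 4 macrophage markers *Lyz2* was higher. Of 6 T and NK cell markers *Klrb1c* alone had a row and was higher, the T cell receptor genes *Cd3e*, *Cd3g* and *Trac* having none, and 3 of 7 erythroid markers had a row, without the globin genes. The sums of these 3 lists reached at most 79.3 in a library. Stage markers and neutrophil markers thus moved with the groups, and their part in the values of the replication genes was not tested. In bulk RNA, a change in the make-up of the sorted cells and a change in RNA per cell cannot be told apart. Levels of these RNAs do not measure the share of cells in S phase, and no statement about that share is made here.

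The promoters are shown because the genes were chosen for a shared process and mostly moved together. RefSeq promoter windows (GRCm38.p6, from 250 bases before to 50 after a transcript's start) were at hand for 41 of the 49 genes, and none for *Gins1*, *Gins2*, *Gins4*, *Gmnn*, *Mcm4*, *Pole*, *Prim2* and *Rfc2*. The letters TTTCCCGC, TTTCGCGC, TTTGCCGC or TTTGGCGC, which resemble the site that E2F factors bind, were found on either strand in the windows of 15 of 41 genes (36.6%), against 4.83% of the 10193 genes of the table with a window. These 15 genes come from several steps of the process: *Orc1* and *Orc3*, *Cdc6* and *Cdt1*, *Mcm3*, *Mcm5*, *Mcm6* and *Mcm7*, *Gins3*, the polymerase genes *Pola1*, *Pold1*, *Pold3* and *Pole2*, the clamp loader gene *Rfc3* and the ligase gene *Lig1*. Printed 5′ to 3′ in the direction of transcription with the matched letters in capitals, the stretches of a licensing factor, of helicase subunits, of ORC, of the clamp loader and of the polymerases read as follows.
Cdt1: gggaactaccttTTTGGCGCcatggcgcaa
Cdc6: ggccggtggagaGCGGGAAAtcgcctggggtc
Orc1: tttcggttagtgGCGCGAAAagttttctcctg
Orc3: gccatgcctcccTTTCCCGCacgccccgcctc
Mcm3: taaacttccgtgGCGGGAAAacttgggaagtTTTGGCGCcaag
Mcm5: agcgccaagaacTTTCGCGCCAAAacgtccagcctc
Mcm6: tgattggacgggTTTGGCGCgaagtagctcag
Mcm7: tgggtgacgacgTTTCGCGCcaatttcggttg
Pole2: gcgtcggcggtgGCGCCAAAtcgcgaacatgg
Pola1: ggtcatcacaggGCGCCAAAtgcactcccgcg
Rfc3: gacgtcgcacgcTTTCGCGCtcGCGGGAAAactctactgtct

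*Mcm3*, *Mcm5* and *Rfc3* each hold 2 matches within these stretches; those of *Mcm5* overlap and run on opposite strands. Counted from the start of the transcript, matches in the 15 windows lay between offset -165 (*Mcm7*, a match outside the stretch shown) and offset 39 (*Pold1*), and *Mcm6* holds further matches at -110 and -106. The *Cdt1* stretch spans chr8:122568035-122568064 on the plus strand, the *Mcm5* stretch chr8:75109344-75109379 on the plus strand and the *Rfc3* stretch chr5:151651189-151651230 on the minus strand. Matches were about as frequent among members called lower, 12 of 31 with a window (38.7%), as among those not called, 3 of 8 (37.5%); neither of the 2 genes called higher held one.

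To show a window with a match beside one without, those of *Mcm5* and *Tyms* are given whole, with E2F-like letters and CCAAT (searched on both strands) in capitals. *Mcm5* and *Tyms* were picked for display after their values were seen, the first because the MCM gene with the largest change, *Mcm4*, had no window. The *Mcm5* window is chr8:75109259-75109558, plus strand, and holds 2 E2F-like matches and 3 CCAAT matches; the *Tyms* window is chr5:30073576-30073875, minus strand, and holds none of either.
Mcm5: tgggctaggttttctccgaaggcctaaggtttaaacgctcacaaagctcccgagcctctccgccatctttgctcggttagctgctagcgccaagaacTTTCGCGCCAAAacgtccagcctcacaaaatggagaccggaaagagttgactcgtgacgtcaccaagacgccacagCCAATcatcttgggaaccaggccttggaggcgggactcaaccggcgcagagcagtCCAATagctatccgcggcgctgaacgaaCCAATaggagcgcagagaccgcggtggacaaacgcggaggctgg
Tyms: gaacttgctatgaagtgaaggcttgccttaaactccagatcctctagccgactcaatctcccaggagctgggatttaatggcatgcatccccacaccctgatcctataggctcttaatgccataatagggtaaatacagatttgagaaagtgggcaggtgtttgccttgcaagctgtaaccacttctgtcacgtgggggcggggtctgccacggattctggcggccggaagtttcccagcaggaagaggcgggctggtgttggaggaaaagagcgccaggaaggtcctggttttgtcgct

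CCAAT was found in 25 of 41 windows of the replication genes (61.0%) and in 43.0% of all genes with a window. TTTGAA, the letters of the CHR element known from promoters of mitotic genes, was found in 5 of 41 (12.2%), against 14.5% of all genes and 16 of 22 (72.7%) of a list of mitosis genes. A match describes letters in the window and is neither a bound site nor a cause.

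**Figure D2:**
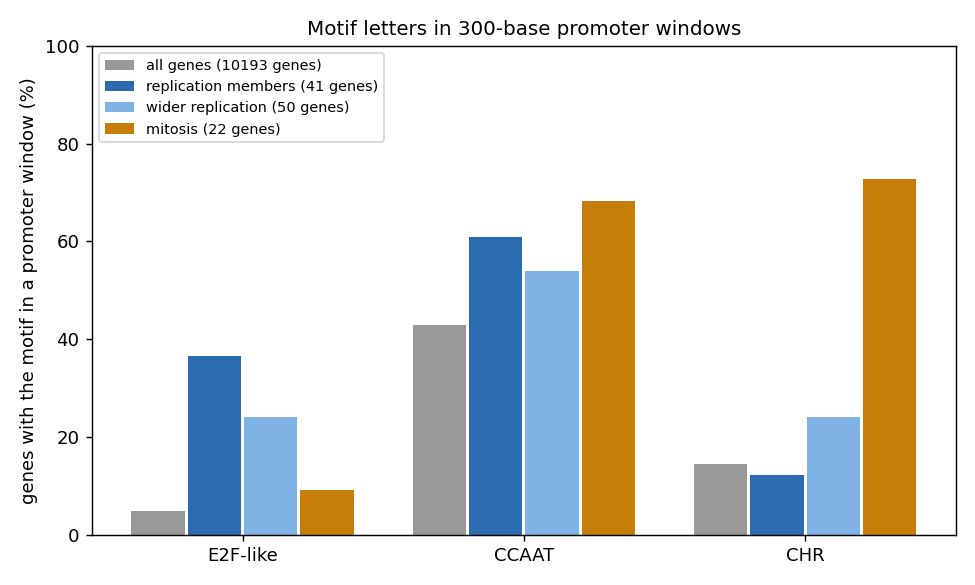
Share of genes (%) with E2F-like letters, CCAAT or the CHR letters TTTGAA on either strand of a 300-base promoter window, for all 10193 genes with a window, 41 replication genes, 50 genes of a wider replication list and 22 mitosis genes. The E2F-like bar of the replication genes stands at 36.6% against 4.83% for all genes, and the CHR bar of the mitosis genes at 72.7% against 12.2% for the replication genes.

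ORC marks origins, and its 6 genes did not move as one: *Orc1* and *Orc6* were lower, *Orc4* was higher, and *Orc2*, *Orc3* and *Orc5* were not called. *Orc1*, the large ATPase subunit, was at 35.1, 34.7 and 31.2 normalised reads in Ctrl libraries 1, 2 and 3 and at 19.3, 18.0 and 17.7 in cKO libraries 1, 2 and 3 (log2 fold change -0.84, SE 0.113, adjusted p = 5.0e-06). Every cKO library lay below every Ctrl library. *Orc4*, another ATPase subunit, was at 41.4, 34.0 and 48.2 in Ctrl and at 70.3, 74.5 and 67.3 in cKO (log2 fold change 0.78, SE 0.111, adjusted p = 1.1e-05), with the groups apart in the opposite direction. *Orc6* was at 61.5, 67.0 and 64.1 in Ctrl and 49.7, 46.5 and 50.9 in cKO, a log2 fold change of -0.38, and lost the call when libraries were scaled to total reads (-0.18, adjusted p = 0.11).

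*Orc2*, which lies at the core of the complex, was at 101, 113 and 117 in Ctrl and 107, 107 and 113 in cKO, and *Orc3*, its neighbour in the complex, at 100.3, 97.1 and 93.5 against 95.9, 97.0 and 103. The groups overlapped for both, and the 95% intervals of the log2 fold change ran from -0.19 to 0.15 for *Orc2* and from -0.14 to 0.19 for *Orc3*. *Orc5* ranged from 16.9 to 22.3 over the 6 libraries. The summed level of the 6 ORC genes was 366 ± 9.43 (SD, n = 3) in Ctrl and 366 ± 6.53 in cKO. Per kb of transcript, *Orc4* took 6.87 ± 1.17% of the ORC sum in Ctrl and 12.4 ± 0.849% in cKO, and *Orc1* took 7.59 ± 0.597% and 4.34 ± 0.284% (means ± SD, n = 3, given as description). The loci of 5 of the 6 genes overlap another annotated gene (*Orc4* overlaps *Acvr2a* and *Mbd5*), as do 21 of the 49 in all, and because reads were counted without strand their values may include reads of those neighbours.

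The loading factors and their inhibitor were all lower, and their summed level in cKO was 53.9% of Ctrl. *Cdt1*, which brings MCM2-7 to the origin, was at 117, 121 and 111 in Ctrl and at 60.9, 52.1 and 50.9 in cKO (log2 fold change -1.08, SE 0.0896, adjusted p = 1.2e-08). *Gmnn*, the gene of the CDT1 inhibitor geminin, was at 110.0, 111 and 129 in Ctrl and at 61.7, 65.0 and 59.8 in cKO (log2 fold change -0.89, SE 0.0878, adjusted p = 1.1e-07). The licensing factor and its inhibitor thus stood at 46.9% and 53.3% of Ctrl, and neither overlapped between groups. *Cdc6*, the ATPase that joins ORC before loading, was at 131, 127 and 126 in Ctrl and 82.2, 78.4 and 72.8 in cKO, a smaller log2 fold change of -0.71.

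All 6 genes of the MCM2-7 helicase fell, with log2 fold changes from -1.14 to -0.67 and a summed level of 53.5% of Ctrl. *Mcm4* was at 342, 365 and 346 in Ctrl and at 153, 170.3 and 154 in cKO (log2 fold change -1.14, SE 0.0743, adjusted p = 6.5e-10). *Mcm5* was at 564, 606 and 546 in Ctrl and at 272, 280.1 and 267 in cKO (log2 fold change -1.06, SE 0.0706, adjusted p = 8.0e-10). The highest cKO library was below the lowest Ctrl library for all 6 genes. The log2 fold changes of the other members were -1.02 for *Mcm3*, -0.96 for *Mcm2*, -0.76 for *Mcm7* and -0.67 for *Mcm6*.

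The subunits are present in equal number in the MCM ring, but the log2 fold changes of their transcripts were not equal. Per kb of transcript, the share of the MCM2-7 sum was 10.1 ± 0.197% in Ctrl and 8.57 ± 0.364% in cKO for *Mcm4* and 17.4 ± 0.239% against 15.6 ± 0.066% for *Mcm5*, whereas it was 14.6 ± 0.309% against 17.2 ± 0.340% for *Mcm6* and 24.1 ± 0.291% against 26.8 ± 0.642% for *Mcm7* (means ± SD, n = 3, shares within a library that do not depend on its scaling). The libraries of the groups did not overlap in these shares, nor in that of *Mcm3* (18.8 ± 0.367% against 17.4 ± 0.214%). They overlapped for *Mcm2* (15.0 ± 0.658% against 14.4 ± 0.299%). Shares of a sum are tied, so a fall in some goes with a rise in others. How often shares of other genes do not overlap was not computed, and no test was run. The *Mcm7* locus holds the microRNA genes *Mir25*, *Mir93* and *Mir106b* and overlaps *Ap4m1*, so its reads are less certainly its own than those of the other 5 genes, which overlap no annotated gene.

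**Figure D3:**
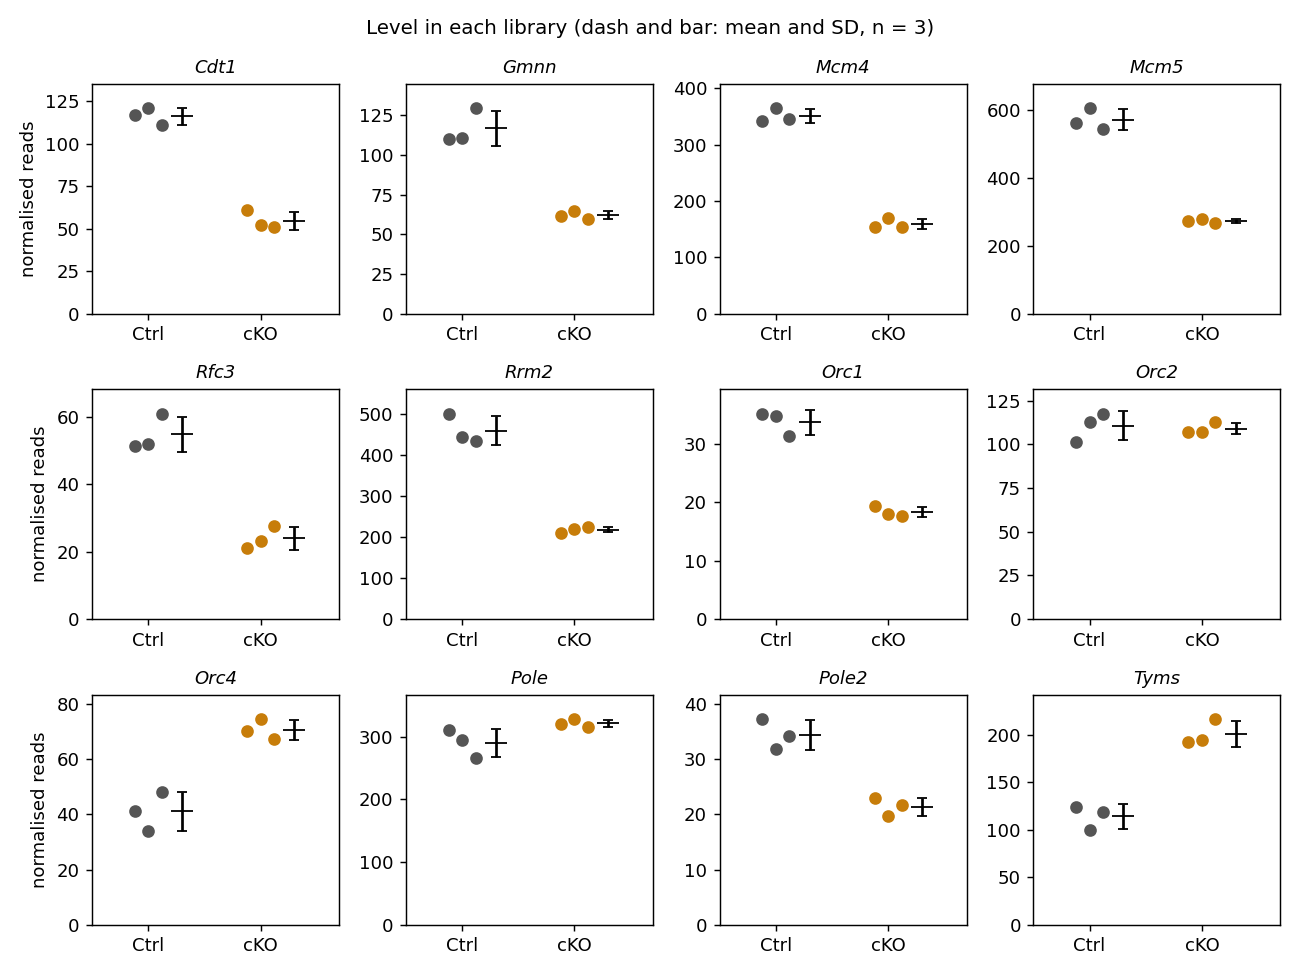
Normalised reads of 12 replication genes in each of 3 Ctrl (grey) and 3 cKO (orange) libraries, on linear axes that start at 0, with a dash and bar for the mean and SD (n = 3). *Cdt1*, *Gmnn*, *Mcm4*, *Mcm5*, *Rfc3*, *Rrm2*, *Orc1* and *Pole2* lie lower in every cKO library, *Orc4* and *Tyms* lie higher, *Orc2* overlaps between groups, and *Pole* lies slightly higher without passing the test (adjusted p = 0.1).

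The 6 genes that turn the loaded ring into a moving helicase were also all lower. Their log2 fold changes ran from -0.62 to -0.29, against -1.14 to -0.67 for the ring, and their summed level was 70.8% of Ctrl. *Gins2* was at 59.6, 62.2 and 56.0 in Ctrl and 36.3, 40.6 and 37.6 in cKO (log2 fold change -0.62, SE 0.094, adjusted p = 2.1e-05), and *Gins1* at 39.8, 46.7 and 52.0 against 27.1, 30.8 and 32.7 (log2 fold change -0.59, SE 0.114, adjusted p = 0.00026). Both are subunits of the 4-member GINS complex, and both had groups that did not overlap. *Cdc45*, the partner of GINS in the active helicase, had a log2 fold change of -0.54 and *Mcm10*, which acts in the opening of the origin, one of -0.47. *Gins3*, at -0.41, lost its call under scaling to total reads (-0.22, adjusted p = 0.10). *Gins4*, at -0.29 (adjusted p = 0.022), was at 51.7, 65.7 and 60.1 in Ctrl and 48.4, 50.4 and 45.8 in cKO, and lost its call under scaling to total reads (-0.085, adjusted p = 0.51), to total reads without the row that holds the most reads (-0.19, adjusted p = 0.12), with a trend in transcript length and GC content removed (-0.19, adjusted p = 0.093) and with eBayes without trend (adjusted p = 0.073). It also lost it without Ctrl library 2 (-0.21, adjusted p = 0.11), without cKO library 1 (-0.29, adjusted p = 0.06) or without cKO library 3 (-0.25, adjusted p = 0.096).

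For primase and polymerase alpha, which lay down the primer of each strand, the accessory and primase genes were lower and the catalytic subunit gene was not called. *Pola2*, the accessory subunit, was at 121, 143 and 124 in Ctrl and 83.9, 91.2 and 89.4 in cKO (log2 fold change -0.54, SE 0.0854, adjusted p = 3.3e-05). *Pola1*, the catalytic subunit, was at 392.5, 348 and 422 in Ctrl and 359.7, 366 and 350.5 in cKO (log2 fold change -0.11, SE 0.0774, adjusted p = 0.25), and its groups overlapped. Without Ctrl library 2, the lowest, it passed the test (-0.18, adjusted p = 0.041), as it did with median centring. Its sign changed, without a call, under quantile normalization (0.069) and scaling to total reads (0.096). Of the primase subunits, *Prim1* was at 90.03, 95.9 and 106 in Ctrl and 63.5, 63.5 and 75.0 in cKO (log2 fold change -0.53, SE 0.0932, adjusted p = 0.00011), and *Prim2* at 91.4, 80.9 and 85.6 against 61.5, 68.5 and 74.6, a log2 fold change of -0.33 that lost its call under scaling to total reads (-0.13, adjusted p = 0.29).

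Of the genes of the polymerases that extend the strands, 3 were lower and 2 were not called. *Pold2*, an accessory subunit of polymerase delta, was at 81.4, 88.5 and 69.1 in Ctrl and 47.5, 47.7 and 49.4 in cKO (log2 fold change -0.71, SE 0.0972, adjusted p = 7.1e-06). *Pole2*, an accessory subunit of polymerase epsilon, was at 37.2, 31.8 and 34.2 in Ctrl and 22.9, 19.6 and 21.6 in cKO (log2 fold change -0.66, SE 0.113, adjusted p = 7.9e-05). *Pole*, the catalytic subunit of the same polymerase, was not lower: it was at 311, 294 and 266 in Ctrl and 320.4, 328 and 316 in cKO. Its groups did not overlap, but the log2 fold change of 0.15 (95% interval -0.01 to 0.31) did not pass the test (adjusted p = 0.1). It did so without Ctrl library 1 (0.20, adjusted p = 0.022) and under scaling to total reads (0.35, adjusted p = 0.0011). The same held for that scaling without the row that holds the most reads (0.25, adjusted p = 0.013) and for quantile normalization (0.29, adjusted p = 0.0037). *Pold1*, the catalytic subunit of polymerase delta, was lower at -0.44, and *Pold3*, a further delta subunit, was not called (-0.10, adjusted p = 0.28) other than with median centring.

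PCNA, the ring that holds polymerases on DNA, is put in place by the 5-subunit RFC complex. *Pcna* had the highest level per kb of the 49 genes, 432 ± 22.5 normalised reads per kb in Ctrl and 242 ± 8.88 in cKO (SD, n = 3), and a log2 fold change of -0.83. *Rfc3*, a small loader subunit, was at 51.4, 52.1 and 60.9 in Ctrl and 21.1, 23.1 and 27.8 in cKO (log2 fold change -1.16, SE 0.115, adjusted p = 1.3e-07), the lowest of the 49 fold changes. *Rfc4* was at 73.2, 65.8 and 79.2 in Ctrl and 42.1, 35.9 and 40.7 in cKO (log2 fold change -0.86, SE 0.0988, adjusted p = 7.9e-07). The largest subunit gene, *Rfc1*, was at 264, 268 and 297 in Ctrl and 255, 271 and 269 in cKO; its groups overlapped and it was not called (log2 fold change -0.06, 95% interval -0.21 to 0.10, adjusted p = 0.53).

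*Rfc5* was lower at -0.77 and *Rfc2* at -0.34, the latter not called under scaling to total reads (-0.14, adjusted p = 0.19). As a share of the 5 RFC genes per kb, *Rfc1* stood at 27.5 ± 0.730% in Ctrl and 39.3 ± 1.604% in cKO, and *Rfc3* at 19.6 ± 1.03% and 12.8 ± 1.46% (means ± SD, n = 3, given as description). *Rfc4* overlaps *Eif4a2* at its locus.

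The RPA trimer, which coats single-stranded DNA at the fork, was lower in all 3 genes. *Rpa3* was at 31.5, 36.0 and 34.8 in Ctrl and 17.0, 17.5 and 19.6 in cKO (log2 fold change -0.88, SE 0.115, adjusted p = 3.8e-06), and *Rpa1*, the large subunit, at 229, 237 and 242 against 145, 153 and 152 (log2 fold change -0.65, SE 0.0725, adjusted p = 5.5e-07). Every cKO library was below every Ctrl library for both, as it was for *Rpa2*, with a log2 fold change of -0.41. In lagging strand maturation, *Lig1*, the ligase that seals Okazaki fragments, was at 465, 491 and 466 in Ctrl and 254, 268 and 248 in cKO (log2 fold change -0.88, SE 0.0702, adjusted p = 7.2e-09). *Fen1*, the flap nuclease, was at 216, 227 and 209 against 124, 119 and 132 (log2 fold change -0.80, SE 0.0763, adjusted p = 7.9e-08).

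*Rnaseh2a*, the catalytic subunit of RNase H2, stood apart from these at 60.9, 66.2 and 63.8 in Ctrl and 69.3, 68.6 and 69.9 in cKO. Its groups did not overlap, yet the log2 fold change of 0.12 (95% interval -0.06 to 0.30) was not called (adjusted p = 0.24). It was called higher under scaling to total reads (0.32, adjusted p = 0.005), also without the row that holds the most reads (0.22, adjusted p = 0.040). Groups that do not overlap, with cKO higher, were seen for 4 of the 49 genes and 30.9% of all genes; with cKO lower, they were seen for 38 of the 49 and 28.0% of all genes.

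Among the genes of nucleotide supply, the 2 subunits of ribonucleotide reductase and *Tyms* went opposite ways. *Rrm2*, the small subunit that is made in S phase, was at 499.9, 443 and 434 in Ctrl and 211, 219 and 224 in cKO (log2 fold change -1.07, SE 0.0751, adjusted p = 1.6e-09). *Rrm1*, the large subunit, was at 615, 595 and 629 against 354, 347 and 355, a log2 fold change of -0.80. *Tyms*, the thymidylate synthase gene, was at 124, 99.3 and 119 in Ctrl and 192, 194 and 216 in cKO (log2 fold change 0.81, SE 0.0893, adjusted p = 4.6e-07), and every cKO library lay above every Ctrl library. Its locus overlaps no annotated gene.

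*Dut*, which degrades dUTP, was lower at -0.81 (56.9% of Ctrl). *Tk1*, the thymidine salvage kinase, was at 86.7, 99.0 and 85.9 in Ctrl and 76.8, 78.3 and 86.4 in cKO, with overlapping groups and no call (-0.17, adjusted p = 0.12). It was called lower with median centring and changed sign under scaling to total reads (0.035, adjusted p = 0.77). Thymidylate synthesis, its salvage and dUTP removal were therefore represented by a gene that rose, a gene that was not called and a gene that fell. In CAF-1, which places histones on new DNA, *Chaf1a* was at 277, 287 and 277 in Ctrl and 169, 177 and 168 in cKO (log2 fold change -0.71, SE 0.0712, adjusted p = 1.6e-07). *Chaf1b* was at 76.5, 75.2 and 78.2 against 62.2, 69.7 and 64.4 (log2 fold change -0.23, SE 0.0848, adjusted p = 0.032), and lost its call without Ctrl library 3 (-0.21, adjusted p = 0.067), without cKO library 1 (-0.19, adjusted p = 0.14), without cKO library 3 (-0.22, adjusted p = 0.10) under scaling to total reads (-0.02, adjusted p = 0.84), also without the row that holds the most reads (-0.13, adjusted p = 0.21), under quantile normalization (-0.20, adjusted p = 0.059) and with eBayes without trend (adjusted p = 0.073).

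Across the roles, 6 genes were lower by a log2 fold change of -1 or less: *Cdt1*, *Mcm3*, *Mcm4*, *Mcm5*, *Rfc3* and *Rrm2*. Over all genes 3.54% passed the test at that size. The median log2 fold change was -0.99 for MCM2-7, -0.89 for the loading factors and -0.80 for clamp and loader, for lagging strand maturation and for nucleotide supply. It was -0.65 for RPA, -0.51 for helicase activation, -0.47 for CAF-1, -0.44 for polymerases delta and epsilon, -0.43 for primase and polymerase alpha and 0.00 for ORC. These medians rest on 2 to 6 genes each and were not tested against each other. Per kb of transcript, levels in Ctrl ran from 9.10 ± 0.957 normalised reads per kb for *Orc5*, 10.1 ± 1.75 for *Orc4* and 11.2 ± 0.708 for *Orc1* up to 209 ± 16.3 for *Rrm2*, 234 ± 9.59 for *Mcm7* and 432 ± 22.5 for *Pcna* (SD, n = 3). In cKO *Orc4* stood at 17.4 ± 0.890 and *Orc1* at 6.07 ± 0.283 per kb, and lay apart, whereas in Ctrl neither *Orc4* and *Orc1* nor *Orc5* and *Orc4* differed beyond their spread.

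Ratios of partner genes within a library do not depend on how libraries are scaled, and 10 were compared. The test was an exact, two-sided permutation of the group labels; with 20 possible assignments its smallest p is 0.1. *Pole2* stood to *Pole* as 0.120, 0.108 and 0.129 in Ctrl and as 0.0714, 0.0598 and 0.0685 in cKO (difference of mean log2 ratios -0.84, exact permutation p = 0.1, adjusted over the 10 pairs 0.125). The accessory subunit's transcript was thus lower relative to the catalytic one in every cKO library. *Orc1* stood to *Orc2* as 0.347, 0.308 and 0.266 in Ctrl and 0.180, 0.168 and 0.157 in cKO (difference -0.86), and *Rfc4* to *Rfc1* as 0.278, 0.245 and 0.267 against 0.165, 0.133 and 0.151 (difference -0.82). *Pola2* to *Pola1* (difference -0.44), *Orc6* to *Orc3* (-0.42) and *Rrm2* to *Rrm1* (-0.27) were also lower in every cKO library, while *Cdc6* to *Cdt1* (0.38) and *Chaf1b* to *Chaf1a* (0.48) were higher. For these 8 pairs the libraries did not overlap, which gives the smallest p the design allows and no adjusted p below 0.05. The share of other gene pairs whose ratios do not overlap was not computed, so nothing is read from the count of 8.

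The ratio that sets the licensing factor against its inhibitor overlapped between groups: *Cdt1* to *Gmnn* was 1.07, 1.09 and 0.858 in Ctrl and 0.987, 0.802 and 0.851 in cKO (difference -0.19, exact permutation p = 0.2, adjusted 0.222). *Prim1* to *Prim2* overlapped as well (difference -0.20, exact permutation p = 0.3).

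**Figure D4:**
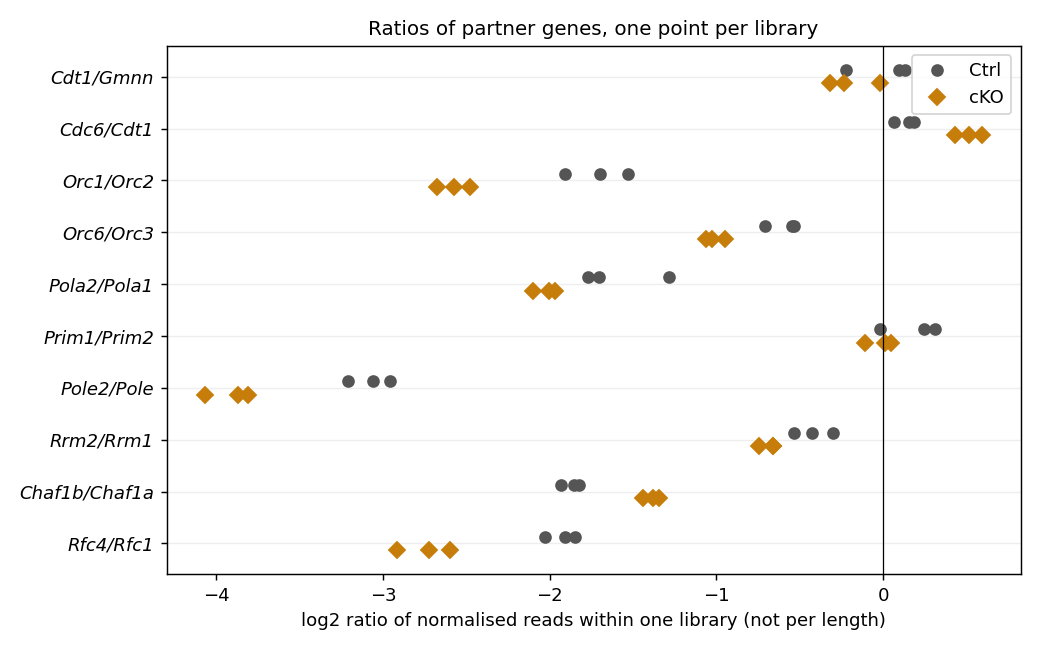
Log2 ratio of normalised reads of partner genes within a library, with a grey circle for each of 3 Ctrl and an orange diamond for each of 3 cKO libraries; ratios are of reads and not per length. *Pole2*/Pole, *Orc1*/Orc2 and *Rfc4*/Rfc1 are shifted to the left in cKO by 0.84, 0.86 and 0.82, and *Cdt1*/Gmnn and *Prim1*/Prim2 overlap.

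A wider list of 62 other replication genes, all with a row, held 43 genes that were lower, 4 that were higher and 15 that were not called, with a median log2 fold change of -0.43; the background is again 25.0% lower and 27.7% higher. *Pclaf*, whose protein binds PCNA, was at 477, 469 and 518 in Ctrl and 181, 195 and 213 in cKO (log2 fold change -1.31, SE 0.0779, adjusted p = 1.9e-10), a larger fall than that of any of the 49 genes. *Uhrf1*, which guides DNA methylation to new strands, fell by 0.93 and *Hat1*, a histone acetyltransferase, by 0.79 on the log2 scale. Of the fork protection genes *Timeless* fell by 0.90, and of the kinases *Cdc7*, which fires origins, by 0.75 and *Cdk2* by 0.81. In nucleotide supply, *Samhd1*, a dNTP hydrolase, fell by 0.85 and *Dctpp1* by 0.75. *Pole4*, a small subunit of polymerase epsilon, fell by 0.72 and *Pole2* by 0.66, whereas *Pole* did not pass the test.

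*Rnaseh2b* and *Rnaseh2c*, the accessory subunits of RNase H2, fell by 0.55 and 0.59, at 67.6% and 65.6% of Ctrl, while the catalytic gene *Rnaseh2a* stood at 109% and was not called. Of the alternative clamp loaders, *Chtf8* and *Chtf18* fell by 0.49 and 0.33, and of the topoisomerases *Top2a* and *Top1* by 0.37 and 0.34. *Chtf18*, *Top1* and *Top2a* lost their calls under scaling to total reads (adjusted p = 0.22, 0.25 and 0.088), and *Top2a* also under quantile normalization (-0.06, adjusted p = 0.47). The genes that rose were *Mtbp*, an origin firing factor, at 49.5, 51.5 and 55.6 in Ctrl and 79.1, 74.8 and 82.2 in cKO (log2 fold change 0.58, SE 0.0881, adjusted p = 2.0e-05), *Mcm9* (0.57), *Mcm8* (0.27) and *Tk2*, the mitochondrial thymidine kinase (0.44). MCM8 and MCM9 form a helicase of their own outside the MCM2-7 ring; *Mcm9* overlaps *Asf1a*, and *Mcm8* (adjusted p = 0.038) lost its call under median centring (0.16, adjusted p = 0.21), under quantile normalization, with DESeq2 and without any one of 5 libraries, all but Ctrl library 2 (adjusted p from 0.054 to 0.13).

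For comparison with the next phase of the cycle, a list of 25 genes of mitosis held 18 that were lower, 4 that were higher (*Kif15*, *Ndc80*, *Bub1* and *Cenpf*) and 3 that were not called, with a median log2 fold change of -0.35, against the same 25.0% and 27.7% of all genes. Scaled to total reads, 8 of the 25 were lower and 4 higher, against 14.4% and 38.5%, and the median was -0.15. The difference between this median and the -0.62 of the replication genes was not tested.

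The size of these values depends on how libraries are put on one scale. A single unnamed row took 16.4 to 23.8% of reads in Ctrl and 13.8 to 16.5% in cKO; with total reads counted without it, the median of all genes was 0.096, and 36 of the 49 genes were lower and 4 higher, against 19.8% and 32.7% of all genes. Scaled to total reads, the median of all genes shifted to 0.19, and 32 of the 49 genes were lower and 5 higher (*Orc3*, *Orc4*, *Pole*, *Rnaseh2a* and *Tyms*), against a background of 14.4% lower and 38.5% higher. With medians of libraries set equal, the median of all genes was -0.10, and 41 were lower and 2 higher against 32.4% and 22.3%; the genes gained were *Pola1* (-0.22, adjusted p = 0.026), *Pold3* (-0.21, adjusted p = 0.029) and *Tk1* (-0.27, adjusted p = 0.012). Under quantile normalization 37 were lower and 3 higher, against 27.9% and 24.8%. Relative to the median of all genes, the median of the 49 genes was -0.61 with total reads and -0.63 with median centring, and -0.63 on the deposited scale. Median centring leaves this difference unchanged by construction, and scaling to total reads nearly so. Of the 40 called genes, 34 kept their call and direction under all 20 alternative settings and none changed direction; the 6 that lost it in at least one were *Orc6*, *Gins3*, *Gins4*, *Prim2*, *Rfc2* and *Chaf1b*. With a trend in transcript length and GC content removed, 37 were lower and 2 higher against 26.5% and 29.3% of 12155 genes with a length. The rank correlation of transcript length with log2 fold change was 0.198 over the 49 genes and 0.099 over all genes with a length, given as a description over genes that share libraries.

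**Figure D5:**
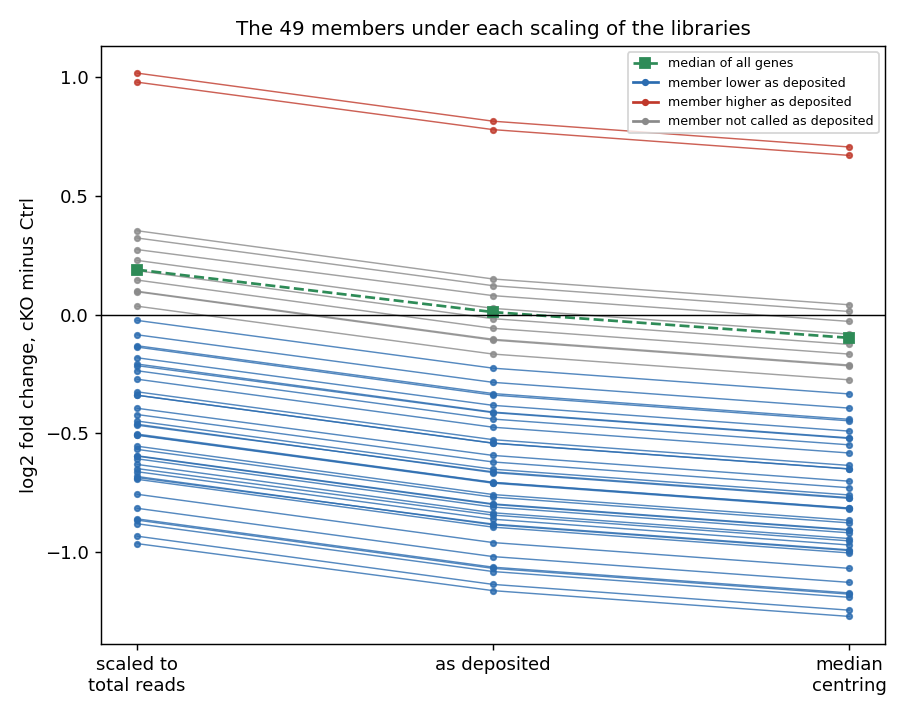
Log2 fold change (cKO minus Ctrl) of each of the 49 genes under scaling to total reads, on the deposited scale and with median centring, joined by lines and coloured by the call on the deposited scale; green squares are the median of all genes (0.19, 0.01 and -0.10). The lines run parallel, the 38 blue lines stay below 0 and the red lines of *Orc4* and *Tyms* above it under all 3 scalings.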

How the data were processed

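RNA of sorted early LPre-B cells (among others B220+, CD43+, sIgM- and CD2- in the study's gate) was depleted of ribosomal RNA and sequenced; labels gave 3 Ctrl and 3 cKO libraries. Per the study's methods and the submitters' processing notes, reads were trimmed with cutadapt 4.0, aligned to mm10 with HISAT2 without use of strand, counted per gene with featureCounts 2.0.1 and processed with limma 3.48.0. The deposited signal per Entrez ID was found to equal (reads + 0.5) divided by an effective library size, times 1000000, called normalised reads here. Whole reads were recovered for 100% of values (tolerance 0.1), 9732498 to 11006834 per library. No deposited row was under 0.5 reads per 1000000 in more than 3 of the 6 libraries. Intervals and recovered reads cover no error from reads that are copies of one molecule.

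RefSeq (GRCm38.p6) named 13008 of 13426 rows. limma 3.58.1 (R 4.3.3; eBayes with trend and robust) was fitted to log2(signal + 1) of all rows with group as the only term, and p-values were adjusted by Benjamini-Hochberg over all 13426 rows; a gene was called below 0.05. The pseudocount understates the change of low genes. Lengths were those of the longest protein-coding GENCODE M21 transcript (90.5% of rows). The fit was tested on simulated data. Ratios and summed levels used Python 3 with numpy and scipy.

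The members and lists were chosen with earlier results of these data known; 1 listed cell marker is not reported here. Library values are given for the 2 called members of each role with the largest absolute log2 fold change, members called against the majority, and ratio partners the text describes; of the wider list, at most 2 called genes per role and those against the majority are named. Genes not called are named too. Beyond this rule, library values are given for *Gins4*, *Rnaseh2a* and *Tk1*. Within a group, pairs of libraries had a chi-square of 4.53 to 23.4 per degree of freedom, above counting noise, so none was counted as a library deposited again. Alternatives were other scalings, pseudocounts, filters and tools (voom, edgeR 4.0.16 and DESeq2 1.42.0 on recovered reads), the replicate block and leaving out each library.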

Additional observations from a re-analysis of the deposited data

How the results depend on the processing

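Counts, medians and fold changes from the fit were recomputed under 20 other settings, and partner ratios under 8. Some settings, such as the other tools, changed more than 1 choice at once. Removal of the length and GC trend also left out genes without a length. Summed levels, shares per kb and promoter shares were not recomputed. Scaling to total reads without the top row and removal of a length and GC trend were chosen after seeing the data. The count of the 49 genes called lower ran from 32 to 41. The count called higher was 2 other than 5 under scaling to total reads, 4 under that scaling without the top row and 3 under quantile normalization (24.8% of all genes); without a single library it was 2 to 3. Their median log2 fold change of -0.62 was -0.73 with median centring, -0.55 with quantile normalization, -0.42 with total reads, -0.53 with total reads without the top row, -0.65 with DESeq2 and -0.57 with the length and GC trend removed, and -0.65 to -0.59 without a single library. For the wider list the median of -0.43 was -0.54, -0.32, -0.23, -0.33 and -0.45 under the first 5 of these, and the count higher was 11 of 62 with total reads and 7 without the top row, where 38.5% and 32.7% of all genes were higher. For mitosis the median of -0.35 was -0.46, -0.25 and -0.15 with median centring, quantile normalization and total reads. With total reads 8 were lower, against 14.4% of all genes. The count higher was 2 with eBayes without trend, median centring or DESeq2, where 3525, 2992 and 3312 of all 13426 genes were higher. With any 1 library left out it was 2 to 4, where 3224 to 3643 genes were higher. With any 1 library left out, the medians were -0.44 to -0.42 for the wider list and -0.39 to -0.28 for mitosis. Scaling by construction shifts all genes of a library together; the cause of the other shifts was not tested.

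Members not called changed sign: *Orc2* to 0.032 (quantile), 0.18 (total reads) and 0.078 (without the top row), *Orc3* to -0.083 (median centring), and *Orc5* to -0.029 (median centring) and -0.033 (quantile). Without a single library *Orc2* ran from -0.078 to 0.027, *Orc3* from -0.0079 to 0.050 and *Orc5* from -0.0012 to 0.17. Under quantile normalization and total reads *Pola1* became 0.069 and 0.096 and *Rfc1* 0.076 and 0.14, *Rfc1* also 0.038 without the top row, and with total reads *Pold3* became 0.098 and *Tk1* 0.035. No partner ratio changed direction in 8 settings. Same-numbered libraries of the groups did not deviate together (correlations -0.030 to 0.082), so the numbers do not pair them. Not every library correlated best with its own number. With the replicate block 38 members were lower and 2 higher, 42 and 4 of the wider list and 18 and 3 of mitosis. In that setting 3321 of all 13426 genes were lower and 3668 higher. The member with the lowest depth had 159 reads in a library.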
